A study of Mus musculus with 3 samples.

Results

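Neuronal overexpression of the circular RNA circFKBP8(5S,6) was compared with the vehicle vector in prelimbic cortex (PrL) tissue of mice exposed to chronic unpredictable mild stress (CUMS). The genes described are the protein-coding genes with a mean of at least 20 recovered reads over the 3 libraries of the series. These are 13309 of 54532 annotated genes, or 24.4%, and of 22046 protein-coding genes, and they held 97.5% to 97.6% of the reads in genes of each library. At the border of this rule, 1700109H08Rik and 3110070M22Rik were just inside with a mean of 20 reads, and Tyms and Usp51 just outside with 19.67.

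The mice were males of 6 to 8 weeks, an age that the study's methods give at purchase, before acclimatization and injection, and both hemispheres received recombinant adeno-associated virus (rAAV, AAV/9). The CUMS vehicle group received rAAV-hSyn-bGH-polyA-CMV-EGFP, the CUMS oe-circ group rAAV-hSyn-circFKBP8-bGH-polyA-CMV-EGFP, and the vector of the CUMS oe-pep group carried the protein encoded by the circular RNA, cFKBP8, under hSyn with a 3×Flag tag, followed by P2A-EGFP and the hGH-polyA. The hSyn promoter is active in neurons and serves to drive the insert there, which was not checked in these libraries. circFKBP8(5S,6) is specific to primates, so mouse tissue holds it only through the vector. All groups, vehicle included, went through 5 weeks of CUMS, a changing series of mild stressors, and no unstressed group is part of the comparison. Each group is 1 library, and the number of mice behind a library is not given in the sources used here. No difference therefore has a replicate check, no test between groups was possible, and a gene was counted as changed by the size of its change alone.

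Reads assigned to genes numbered 18084058 for CUMS vehicle, 14413544 for CUMS oe-circ and 16410635 for CUMS oe-pep. Values of the libraries are given in this order throughout: vehicle, oe-circ, oe-pep. A fold change is the difference of log2(FPKM + 0.1) between oe-circ and vehicle, where FPKM is the number of fragments scaled to the length of the gene and the size of the library, and the added 0.1 shrinks the fold change of weakly expressed genes. Reads are not scaled to depth, and 1 read per kilobase is an FPKM of 0.0540, 0.0687 and 0.0597. A ratio is that of the FPKM themselves, with an exact conditional binomial (Clopper-Pearson) 95% interval from the reads of both libraries. Such intervals cover counting error only and compare libraries, not groups. The tissue label was checked with neuronal markers. The cortical glutamate transporter gene Slc17a7 had an FPKM of 235, 277 and 253, and the forebrain kinase gene Camk2a 404, 457 and 417. Genes of the striatum, which lies below the medial prefrontal cortex, were also high, and the vehicle library held Penk at an FPKM of 241 and Ppp1r1b at 153. The oe-pep library shares its vehicle control with the comparison described, so its values stand beside the others without being counted as a second result.

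Medium spiny neurons, the output cells of the striatum, form a direct pathway, marked by the dopamine receptor Drd1, substance P and dynorphin, and an indirect pathway, marked by Drd2, the adenosine receptor Adora2a and enkephalin. In these cells dopamine at Drd1 and adenosine at Adora2a act on adenylyl cyclase through a G protein particular to the striatum and olfactory system. The cAMP made is broken down by phosphodiesterases. Cholinergic neurons of the basal forebrain and septum, which project to the cortex, make acetylcholine and depend on nerve growth factor. The prelimbic cortex itself is made of layered glutamatergic neurons and interneurons, and is covered by the meninges, a sheet of fibroblasts.

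Promoters are shown for genes that were lower in the oe-circ library and that hold a site of cAMP or retinoid signalling, since genes of both pathways are described among them, and all 9 such genes of the promoter table are given. The stretches lie upstream of the RefSeq start, are given on the strand of the gene with coordinates of GRCm38.p6, and carry the motif in capitals. The motifs, searched on both strands in the 250 bases before the start, were the cAMP response element TGACGTCA, its variant TGACGCA, seen as TGCGTCA when read from the other strand, and a retinoid repeat, GTTCANNNNNNGTTCA. The cAMP element and its variant share their first letters, and neither contains the other. Cartpt is a neuropeptide gene (chr13:99900768-99900815, minus strand), Gpr6 an orphan receptor gene (chr10:41072341-41072388, minus strand), Dlk1 an imprinted gene of a membrane ligand (chr12:109452697-109452743, plus strand), and Gpr101 an orphan receptor gene (chrX:57503806-57503852, minus strand). Isl1 encodes a homeodomain factor (chr13:116309705-116309751, minus strand), Tac1 the precursor of substance P (chr6:7554842-7554888, plus strand), and Rarb a retinoic acid receptor (chr14:16575493-16575548, minus strand). Klhl1 encodes an actin-organizing protein (chr14:96519114-96519160, minus strand), and Fam71e1 lies at chr7:44496554-44496594, plus strand.
Cartpt: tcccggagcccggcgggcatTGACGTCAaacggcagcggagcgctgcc
Gpr6: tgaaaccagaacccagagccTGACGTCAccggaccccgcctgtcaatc
Fam71e1: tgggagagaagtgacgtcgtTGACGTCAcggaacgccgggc
Dlk1: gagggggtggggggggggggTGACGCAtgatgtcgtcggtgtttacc
Gpr101: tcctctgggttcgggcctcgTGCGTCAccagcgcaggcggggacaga
Isl1: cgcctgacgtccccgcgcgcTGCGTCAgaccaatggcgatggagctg
Klhl1: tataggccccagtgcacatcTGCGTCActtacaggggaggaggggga
Tac1: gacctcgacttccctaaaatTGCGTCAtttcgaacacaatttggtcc
Rarb: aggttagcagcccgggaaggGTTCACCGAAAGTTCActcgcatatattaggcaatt
Of the 126 lower genes, 94 had a promoter in the RefSeq table. The response element stood in 3 of them (3.19%), against 3.1% of 10413 measured genes with a promoter and 1.77% of 27025 promoters in all. Its variant stood in 5 (5.32%), against 3.45% and 2.0%, and the retinoid repeat in Rarb alone (1.06%), against 0.048% and 0.0777%. The retinoid share is that of 1 gene, so no excess is read from it. A match of letters is a description of the promoter and no sign that a factor was bound there.

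Lower expression in the oe-circ than in the vehicle library by more than 2-fold was found for 126 genes, or 0.947% of the 13309, and higher expression by the same margin for 29, or 0.218%. At more than 1.5-fold, a threshold added after the data had been seen, 444 genes were lower (3.34%) and 201 higher (1.51%), and 12664 genes (95.15%) stayed within 1.5-fold. Over all genes the median log2 fold change was 0.00 and the SD 0.31. The lower genes reached into the well-counted part of the table, and the higher genes did not. Where the mean reached 100 reads (10965 genes), 62 were lower and 1 was higher, Slc13a4, a sulfate transporter gene of the meninges. Of the 1805 genes with a mean of 2000 reads or more, 6 were lower and 0 higher, and the lower ones included Penk, Ppp1r1b, Pde10a, Gng7 and Adcy5, all genes of striatal projection neurons. Of the 1162 genes with 20 to 50 reads, 38 were lower and 24 higher. The counting interval of the ratio excluded equality in all 126 and all 29 genes, and lay wholly beyond 2-fold in 75 of the lower and 4 of the higher genes. The genes were chosen by the same reads, so that the exclusion of equality follows largely from the choice and is no separate support. The limit of 20 mean reads was reached only through the library where the gene was high by 19 of the lower genes (the vehicle library) and 10 of the higher genes (the oe-circ library), and without them 107 and 19 were left. Next to the 2-fold limit stood Hk3 (log2 fold change −1.02) and Gm14296 (1.01) inside, and Strip2 (−0.99) and Dpp4 (0.97) outside.

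**Figure D1:**
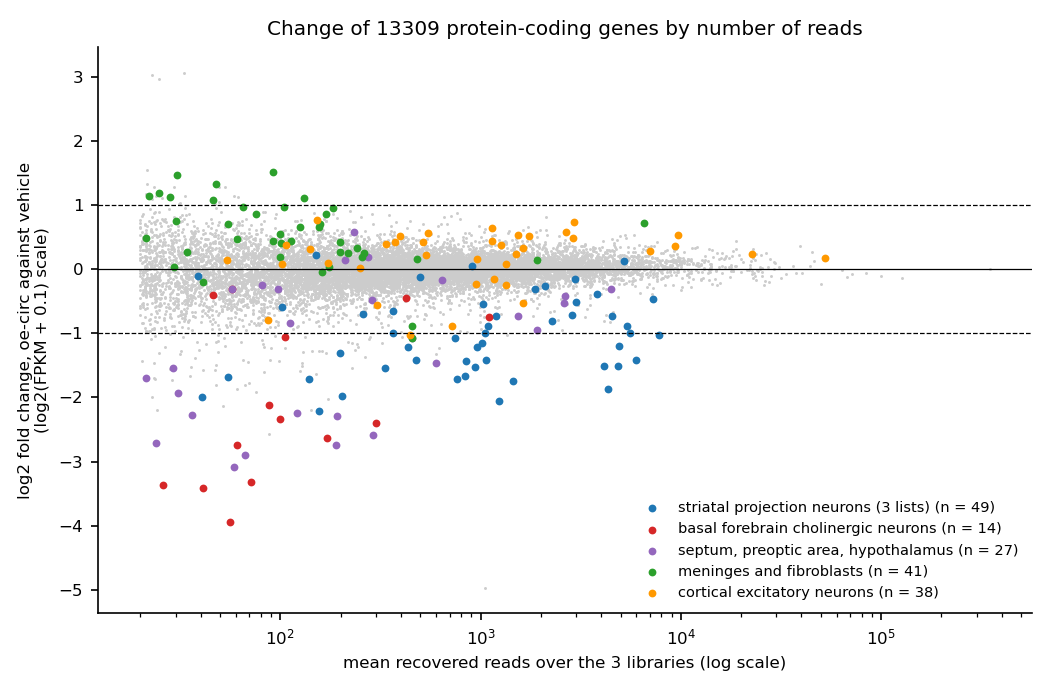
The log2 fold change of oe-circ against vehicle (vertical axis, log2(FPKM + 0.1) scale) is plotted against the mean recovered reads over the 3 libraries (horizontal axis, log scale) for the 13309 genes in grey, with members of 5 region or cell groups in colour and 2-fold limits dashed. Striatal genes extend below the lower limit into the best counted part of the plot, and 10 of 14 cholinergic genes lie below it, as with Lhx8 at −3.42, while the genes above the upper limit have few reads. The grey point near −5 is Gapdh, which has near-identical copies.

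Indirect pathway genes were lower by the widest margin among the striatal lists. Penk (chromosome 4, 4133531 to 4138819, mm10), the precursor of the enkephalins, had 7280, 1558 and 4158 reads and an FPKM of 241, 65.5 and 152. Its FPKM was 3.67-fold lower in the oe-circ library (3.48 to 3.88). Adora2a, the adenosine receptor gene of these cells (chromosome 10, 75316877 to 75334784), had an FPKM of 32.9, 7.83 and 28.8 and was 4.20-fold lower (3.75 to 4.72). Drd2 (chromosome 9, 49340627 to 49408177), the dopamine receptor that inhibits adenylyl cyclase, had an FPKM of 22.5, 6.83 and 22.6, which is 3.30-fold lower (2.87 to 3.8). The oe-circ library stood apart for these genes, and the vehicle and oe-pep libraries were close to each other for Drd2 and Adora2a. The receptor gene Gpr6 had an FPKM of 14.4, 4.89 and 13.4. These 4 were the only ones more than 2-fold lower among the 7 measured members of the indirect list, against a background of 0.947%, with a list median of −1.54. This list and those below were written with earlier results of these data known. Their counts beside the background are therefore a description and not independent evidence. The developmental factor Sp9 had a log2 fold change of −0.70, the kainate receptor subunit gene Grik3 −0.26 and Ttc12 −0.10. Upb1, with 32, 4 and 14 reads, was under the read limit.

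Members of the direct pathway list were split, with 6 of the 9 measured below 0. Drd1 (chromosome 13, 54051183 to 54055705), the dopamine receptor that stimulates adenylyl cyclase, had 1211, 350 and 988 reads and an FPKM of 18, 6.63 and 16.3, which is 2.72-fold lower (2.41 to 3.07). Tac1, the substance P precursor, had an FPKM of 24.7, 8.53 and 14.6 (2.89-fold lower, 2.59 to 3.23). Pdyn, the dynorphin precursor, had an FPKM of 29.7, 12.7 and 15.8 (2.34-fold lower, 2.12 to 2.59), and here the oe-pep library lay nearer to oe-circ than to vehicle. Isl1, the homeodomain factor that sets the fate of these cells, had 94, 19 and 51 reads (3.89-fold lower, 2.36 to 6.75). These 4 of 9 measured genes passed 2-fold, against 0.947% of all genes, and 0 of 9 were higher, with a median of −0.59. Ebf1, another factor of direct pathway neurons, had a log2 fold change of −0.59. The muscarinic receptor gene Chrm4 had −0.12, Sfxn1 0.04, Stmn2 0.13 and Eya1 0.22, of which the last 3 lay above 0.

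Both kinds of striatal neuron share 33 measured genes, of which 17 were lower by more than 2-fold, against 0.947% of all genes, and 0 higher, and all 33 had a log2 fold change below 0, from −2.21 to −0.16 with a median of −1.02. Members were listed with earlier results known, so these counts are not independent of the data. The highest FPKM was that of Ppp1r1b (chromosome 11, 98348404 to 98357796), which encodes a phosphatase inhibitor switched on by cAMP, with 8296, 2446 and 7214 reads. Its FPKM of 153, 57.4 and 147 was 2.67-fold lower in the oe-circ library (2.55 to 2.79). The phosphodiesterase gene Pde10a had an FPKM of 27.6, 9.63 and 28.9, and its ratio was close to that of Ppp1r1b, at 2.86-fold lower (2.72 to 3.02). Rgs9, which encodes a protein that ends G protein signals, had an FPKM of 17.9, 5.26 and 16.1 (3.41-fold lower, 3.09 to 3.77). Among genes with fewer reads, Serpina9 had 248, 38 and 182 reads (5.13-fold lower), Ido1, an enzyme of tryptophan breakdown, 61, 10 and 51 (4.80-fold lower), and Slc35d3 326, 62 and 221 (4.13-fold lower). Syndig1l and Lrrc10b were 3.21-fold and 2.70-fold lower in oe-circ, with an FPKM in oe-pep (22.9 and 43.7) above that of vehicle (18.7 and 33.8). Members short of 2-fold, picked here after their values were seen, included the transcription factor genes Foxp1 (−0.31), Meis2 (−0.50) and Bcl11b (−0.81) and the phosphatase gene Ptpn5 (−0.39). The summed FPKM of the 33 genes was 1138, 588 and 1066.

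**Figure D2:**
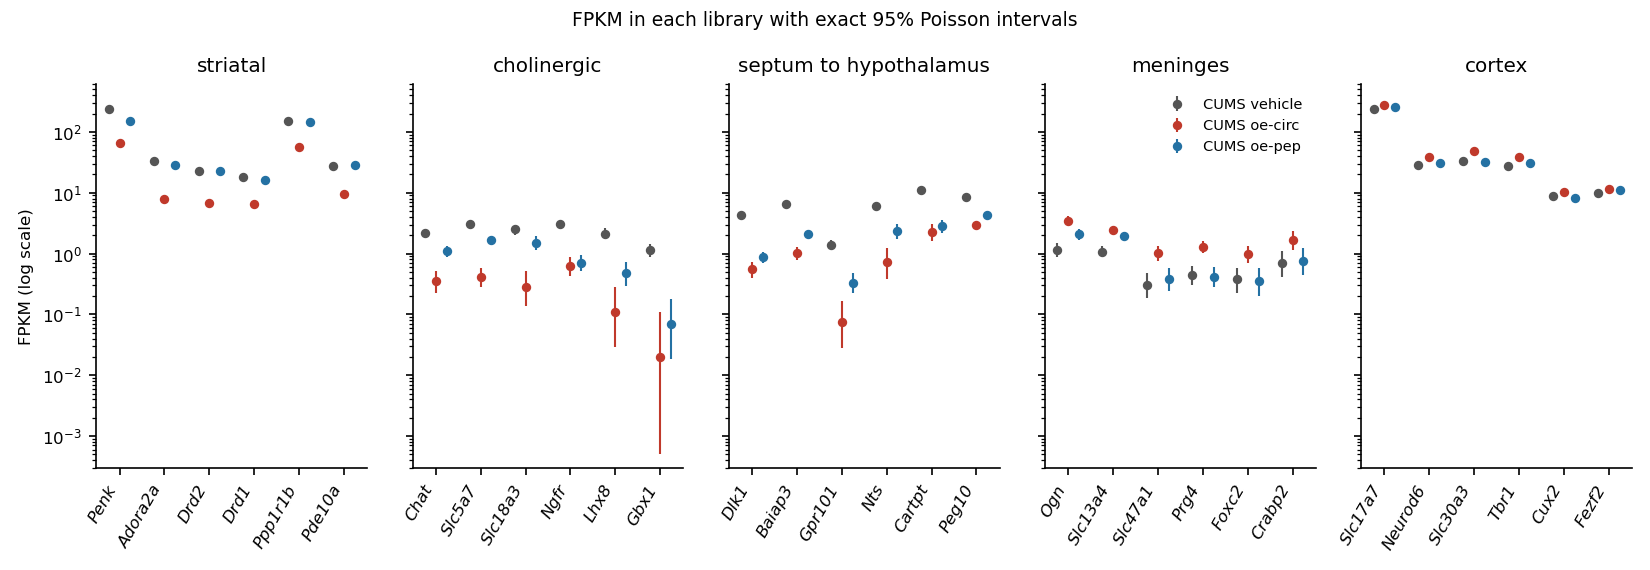
FPKM (log scale) is plotted for 6 genes in each of 5 groups, with 1 point per library (vehicle grey, oe-circ red, oe-pep blue) and exact 95% Poisson intervals as bars. In the striatal, cholinergic and septal panels the oe-circ point is the lowest of the 3 for every gene drawn, and in the meningeal panel it is the highest, as with Ogn at an FPKM of 3.48 against 1.16 in vehicle.

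Genes of basal forebrain cholinergic neurons had the lowest median of the 28 lists. Lower by more than 2-fold were 10 of the 14 genes measured, against 0.947% of all genes, and 0 were higher, and all 14 were below 0, with a median of −2.37. Chat (chromosome 14, 32408203 to 32465989), the enzyme that makes acetylcholine, had 190, 24 and 86 reads. Slc18a3, which loads acetylcholine into vesicles and lies within the Chat locus (32462438 to 32464850), had 111, 10 and 61 reads. Slc5a7, the choline transporter gene, had 324, 34 and 155 reads. The ratios of the last pair were 8.73-fold lower for Slc18a3 (4.57 to 18.7) and 7.49-fold lower for Slc5a7 (5.25 to 11), so each step from choline uptake to vesicle loading was lower, and for each the oe-pep library was between vehicle and oe-circ. Ache, the enzyme that breaks acetylcholine down and that other neurons also make, had an FPKM of 18.4, 10.9 and 12.6 (1.69-fold lower, 1.54 to 1.84), and Prima1, which anchors it in the membrane, 6.17, 2.91 and 5.81 (2.12-fold lower).

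Receptor and identity genes of these neurons were lower too, some of them near the counting limit in the oe-circ library. Ngfr, a receptor of nerve growth factor, had 192, 31 and 41 reads (4.87-fold lower, 3.32 to 7.37). For Ngfr the oe-pep library stood near oe-circ. Lhx8, the factor that gives these neurons their cholinergic identity, had 100, 4 and 20 reads, and Gbx1, a homeodomain factor of the basal forebrain, 73, 1 and 4, and both reached the read limit only through the vehicle library. Their ratios were 19.7-fold (7.44 to 73.5) and 57.4-fold lower (9.98 to 2298). Slc10a4, a vesicle protein gene of cholinergic and amine neurons, had 149, 9 and 55 reads and was 13-fold lower (6.67 to 29). Lhx6, which cortical interneurons also express, had a log2 fold change of −0.44, Fign −0.40 and Zic4 −0.31. In such bulk tissue, fewer cells of a type and less RNA per cell cannot be told apart.

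Genes that mark the septum, the preoptic area and the hypothalamus followed. Of 41 listed genes, 27 had enough reads, and 13 of them were lower by more than 2-fold, against 0.947% of all genes, and 0 higher (median −0.96, 24 below 0). With a mean of at least 50 reads the count was 8. Of the 13, 5 reached the limit of 20 reads only through the vehicle library, where they were high (Arhgap36, Dgkk, Gpr101, Magel2 and Nkx2-1), so that the limit itself favoured a lower value for them. Dlk1 (chromosome 12, 109452823 to 109463336) had 444, 45 and 82 reads and was 7.76-fold lower (5.70 to 10.8). Baiap3, a gene of dense-core vesicle release, had 622, 75 and 178 reads (6.52-fold lower, 5.12 to 8.40). Gpr101 had 140, 6 and 30 reads, an 18.3-fold lower FPKM (8.22 to 50.8). In these 3 genes the oe-pep library was low as well, closer to oe-circ than to vehicle. Six3, a homeodomain factor of the anterior forebrain, had 345, 49 and 183 reads, and Nkx2-1, a factor of the ventral forebrain, 76, 9 and 24. Arhgap36 had 60, 3 and 9 reads (15.7-fold lower, 5.13 to 78.4), Dgkk 50, 5 and 9, and the imprinted gene Magel2 57, 11 and 19. Zic1, a factor of septal neurons, had an FPKM of 6.52, 3.05 and 4.39 (2.13-fold lower, 1.85 to 2.48), while Zic2 had a log2 fold change of 0.19 and Zic5 −0.25. Of the hypothalamic hormones and peptides, Hcrt, Oxt, Avp, Pmch and Agrp had 0 to 10 reads in every library and did not enter, as did the hypothalamic factor gene Sim1 with 0 reads in all, whereas Trh entered and is among the 13.

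Pooled over the 5 striatal, cholinergic and septal lists, 48 of 89 genes were lower by more than 2-fold and 0 higher (median −1.08), and 83 of 89 were below 0. Since these lists were written with earlier results known, the pooled count is a description only. Of the 48, 2 cholinergic and 5 septal genes reached the read limit only through the vehicle library. The limit itself favoured a lower value for these genes. Outside these lists, 78 of 13220 genes were lower (0.59%) and 29 higher, with a median of 0.00. Of the 126 lower genes, 63 stood in at least 1 of the 28 lists, 52 fell only in a functional class assigned after their values were known, and 11 in neither. For the 29 higher genes these numbers were 14, 7 and 8.

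**Figure D3:**
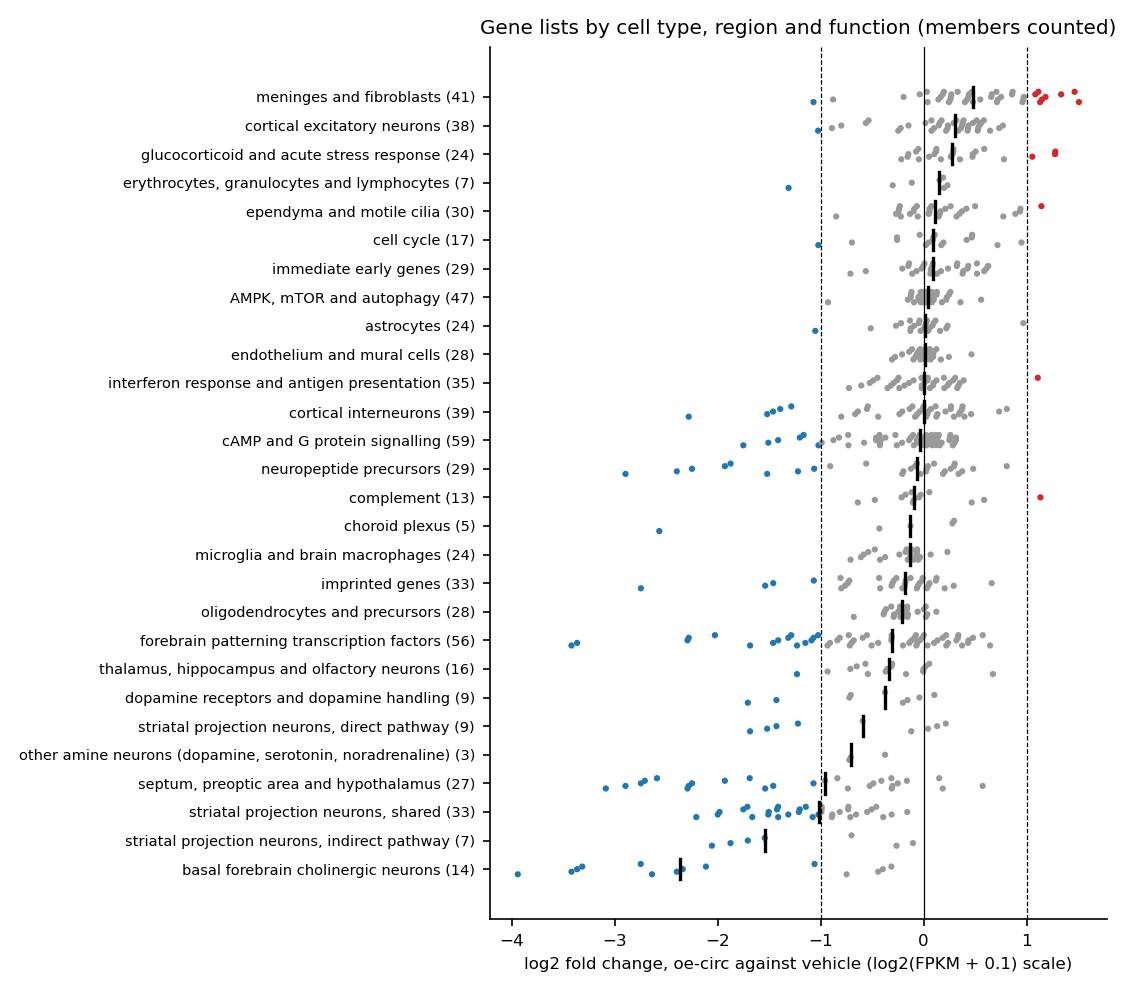
Each row is a gene list with its number of measured genes, each point the log2 fold change of a gene in oe-circ against vehicle, and each black bar the list median. Genes past 2-fold are blue when lower and red when higher. The cholinergic list has the lowest median (−2.37), followed by the indirect pathway (−1.54) and shared striatal lists (−1.02), and the meningeal list the highest (0.48).

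Forebrain patterning factors, the transcription factors that give regions their identity in development, divided by region. In this list of 56, 15 were lower by more than 2-fold, against the 0.947% of all genes, and 0 higher (median −0.31). Of the 15, Gbx1, Lhx8 and Nkx2-1 reached the read limit only through the vehicle library. Besides the factors given above, Zfp503, a striatal zinc finger gene, had 330, 59 and 131 reads (4.40-fold lower, 3.32 to 5.90), and Dlx5 and Dlx6, neighbouring genes of GABA neurons, had an FPKM of 5.25, 2.1 and 2.69 and of 4.32, 1.5 and 3.62. Dlx1, of the same family, had a log2 fold change of 0.14 and Dlx2 −0.55. Pbx3, Dach1 and Tcf7l2 were 2.19-fold, 2.31-fold and 2.73-fold lower. Factors of the dorsal forebrain had values on the other side of 0, with 0.57 for Otx1, 0.48 for Tbr1, 0.44 for Neurod6 and 0.43 for Emx1. An annotated transcription factor family was held by 965 measured genes, of which 14 were lower (1.45%) and 4 higher. Of the 14, 8 belonged to the 54 homeobox genes. Zfp503 and Dach1 carry no such annotation and are not among the 14. The 439 genes annotated as zinc fingers of the C2H2 type, without Zfp503, had 2 lower and 2 higher.

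Of 29 genes of neuropeptides and peptidases, 8 were lower by more than 2-fold, against 0.947% of all genes, and 0 higher (median −0.06). Among the 8 were Penk, Tac1 and Pdyn of the striatal lists. Nts, the neurotensin precursor, had 138, 13 and 49 reads and was 8.35-fold lower (4.72 to 16.1). Cartpt had 263, 42 and 60 reads (4.92-fold lower, 3.54 to 6.99), and Trh, the precursor of thyrotropin-releasing hormone, 46, 8 and 39. For Trh only the oe-circ library was low, and for Cartpt both overexpression libraries were. Ecel1, a peptidase of the neprilysin type, had an FPKM of 9.02, 1.63 and 3.94, and Mme, neprilysin itself, which cuts enkephalin, 1.86, 0.840 and 1.56. Peptides of cortical interneurons had log2 fold changes of −0.21 (Sst), 0.03 (Npy), 0.38 (Cck) and 0.81 (Vip).

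G protein-coupled receptors outside the region lists were grouped after their values were known, so their direction is a matter of choice and their levels are the description. The tachykinin receptor genes Tacr1 and Tacr3 had 203, 47 and 128 reads and 96, 13 and 46 reads, and they were the only tachykinin receptors measured. Of 11 serotonin receptor genes, 3 were more than 2-fold lower, against 0.947% of all genes. These were Htr2c, with an FPKM of 5.78, 2.40 and 3.48 (2.40-fold lower, 2.12 to 2.73), Htr1d with 57, 11 and 38 reads, and Htr4 with 52, 15 and 48. The kappa opioid receptor gene Oprk1, which binds dynorphin, had 251, 74 and 160 reads (2.67-fold lower, 2.05 to 3.5) and was the only opioid receptor of 4 past 2-fold. P2ry1, a receptor of extracellular ADP, had 128, 25 and 57 reads, the bombesin receptor gene Nmbr 79, 19 and 45, and the orphan receptor genes Gpr149 and Gpr139 128, 23 and 31 and 51, 14 and 63. Gpr149 was thus low in both overexpression libraries, and Gpr139 in oe-circ alone. Among 42 genes of the Gpr series, 5 were lower by more than 2-fold, against the same 0.947%, and the median was −0.01. Of these 5, Gpr101 reached the read limit only through the vehicle library. Receptor families that cortical neurons use widely had none past 2-fold: 15 ionotropic glutamate receptor subunits (median −0.07), 15 GABA receptor subunits (0.02), 7 metabotropic glutamate receptors (0.06), 10 acetylcholine receptors (0.13) and 8 adrenergic receptors (0.15).

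Within cAMP and G protein signalling, 6 of 59 genes were lower by more than 2-fold, against 0.947% of all genes, and 0 higher, and the median of −0.04 was near that of all genes. The 6 were Adcy5, Gng7, Pde10a, Pde1c, Rgs9 and Ppp1r1b. Adcy5, the adenylyl cyclase of the striatum, had 10574, 4090 and 8685 reads and an FPKM of 79.5, 39.1 and 72.2 (2.03-fold lower, 1.96 to 2.11). The other 8 adenylyl cyclase genes did not pass 2-fold, with 0.31 for Adcy1 and 0.28 for Adcy2. Gng7, the gamma subunit that pairs with the striatal G protein, had an FPKM of 99.6, 43.2 and 84.6 (2.31-fold lower, 2.20 to 2.42), and Gnal, the alpha subunit, 57.3, 34.4 and 48.2 (1.66-fold lower, 1.59 to 1.74). Gnas, the alpha subunit used elsewhere, had a log2 fold change of −0.07. Of 19 phosphodiesterase genes, Pde10a and Pde1c were more than 2-fold lower, and Pde1b, with an FPKM of 76.2, 38.3 and 68.0, stood just short of it (1.99-fold, 1.91 to 2.07). Pde1a had 0.30. Of 16 genes of the Rgs family, Rgs9 alone passed 2-fold, and Rgs4, a cortical member, had 0.31.

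Changed ion channel and release protein genes are named here after their values were seen. The shares over all genes were 0.947% lower and 0.218% higher. Kcna5, a voltage-gated potassium channel gene, had 246, 39 and 142 reads (4.96-fold lower, 3.53 to 7.14) and was the only one of 73 potassium channel genes past 2-fold (1.37%). Ano2, a chloride channel gated by calcium, had 109, 19 and 71 reads, and Ryr3, a channel of intracellular calcium stores, an FPKM of 1.58, 0.710 and 1.48. None of 22 voltage-gated calcium channel genes passed 2-fold. The vesicle protein genes Doc2b and Sv2c had an FPKM of 11.1, 4.35 and 8.46 and of 10.6, 5.16 and 8.88, with the oe-circ library lowest in each, and 0 of 16 synaptotagmin genes passed 2-fold. These family counts are near the shares over all genes, and nothing particular to channels or release proteins is read from them.

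Retinoid genes past 2-fold, put together after their values were known, numbered 3 lower and 1 higher. Only changed genes were put in this class, so it gives no share to set beside the 0.947% lower and 0.218% higher of all genes. Rarb had an FPKM of 3.04, 1.16 and 2.40 (2.61-fold lower, 2.06 to 3.35) and Rxrg, a retinoid receptor of the striatum, 14.6, 5.42 and 16.4 (2.69-fold lower, 2.28 to 3.2). Crabp1, which binds retinoic acid in the cytosol, had 40, 7 and 22 reads (4.49-fold lower, 1.99 to 11.9). Crabp2, its relative and a member of the meningeal list, had 17, 32 and 17 reads, 2.39-fold higher (1.29 to 4.6). Crabp1 reached the read limit only through the vehicle library, and Crabp2 only through the oe-circ library. The oe-circ library was thus the lowest for the first 3 and the highest for Crabp2.

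Other lower genes of the matrix, cell surface and metabolism were assigned to classes after their values were known. Ndst4, an enzyme of heparan sulfate synthesis, had 454, 111 and 123 reads (3.22-fold lower, 2.61 to 3.99), with the oe-pep library as low as oe-circ. Car12, a carbonic anhydrase gene, had 431, 125 and 242 reads, and its relative Car13 9, 27 and 29, in the other direction. Clic6, a chloride channel gene listed as a choroid plexus marker, had 179, 19 and 65 reads (7.41-fold lower, 4.61 to 12.6), whereas Ttr, the most abundant choroid plexus transcript, had 155, 150 and 397. The protease inhibitor gene Spint1 had 141, 39 and 87 reads, the growth factor gene Fgf3 46, 10 and 28, Wnt2 119, 40 and 88, and the collagen gene Col11a1 68, 16 and 14. Of 32 collagen genes, Col11a1 alone was past 2-fold (3.125% lower, against 0.947% of all genes). Col11a1 reached the read limit only through the vehicle library. Agt, the angiotensinogen gene of astrocytes, had an FPKM of 6.29, 2.98 and 3.09 and was lower in both overexpression libraries.

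The remaining lower genes, each past 2-fold, include 4 more of the shared striatal list. Zcchc12 had 1644, 583 and 826 reads, Rasgrp2, an exchange factor for Rap proteins, 1011, 367 and 869, Gprin3 645, 212 and 453, and Sh3rf2 189, 40 and 188. Sh3rf2 was low in oe-circ alone, and Zcchc12 also in oe-pep. Genes of the cytoskeleton and of adhesion were Filip1 (383, 126 and 220 reads), Arhgap6 (247, 70 and 116), the actin-binding Nexn (223, 69 and 176), Klhl1 (111, 26 and 71), Fndc9 (106, 29 and 61), the cadherin-related Dchs2 (85, 12 and 44), Igsf1 (85, 17 and 21) and the keratin Krt20 (42, 12 and 42). Igsf1 had nearly the same reads in both overexpression libraries, and Krt20 equal reads in vehicle and oe-pep. Secreted and matrix proteins were the protease Adamts3 (379, 130 and 172 reads), Scube3 (208, 49 and 127), Papln (96, 30 and 65), Igfbpl1 (74, 24 and 46) and Hapln3 (38, 10 and 32). Kinases and phosphatases were Stk32a (140, 44 and 134), Stk32b (57, 10 and 19) and Ptpn7 (38, 3 and 30). The ratio of Ptpn7, 9.96-fold lower, rests on 3 reads in oe-circ, and its interval of 3.16 to 50.4 overlaps that of Stk32b (2.27 to 9.84). Metabolic enzymes were Plppr1, a member of the lipid phosphatase family (364, 113 and 228), the glycolytic Pgam2 (111, 40 and 92) and Smpdl3b (80, 24 and 42), with the hexokinase Hk3 (43, 14 and 27), Pipox (35, 6 and 29) and B3gnt3 (30, 6 and 25) at few reads. Single genes of other classes were Clspn, of DNA replication (68, 21 and 57), Ccno (49, 11 and 47), the channel gene Trpv3 (42, 11 and 15) and Clec12a (37, 10 and 24).

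No list or class held 11 lower genes. Rem2, a small G protein that restrains calcium channels, had 296, 104 and 253 reads, Ccdc187 225, 47 and 180 and AW551984 183, 48 and 63. The other 8 had at most 119 reads in a library: Gm45623, Fam196b, mt-Atp8, Fam71e1, Prcd, Gm10269, Xkrx and A930017K11Rik. The mitochondrial gene mt-Atp8, with 81, 29 and 36 reads, shares exon bases with mt-Atp6 on the same strand.

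**Figure D4:**
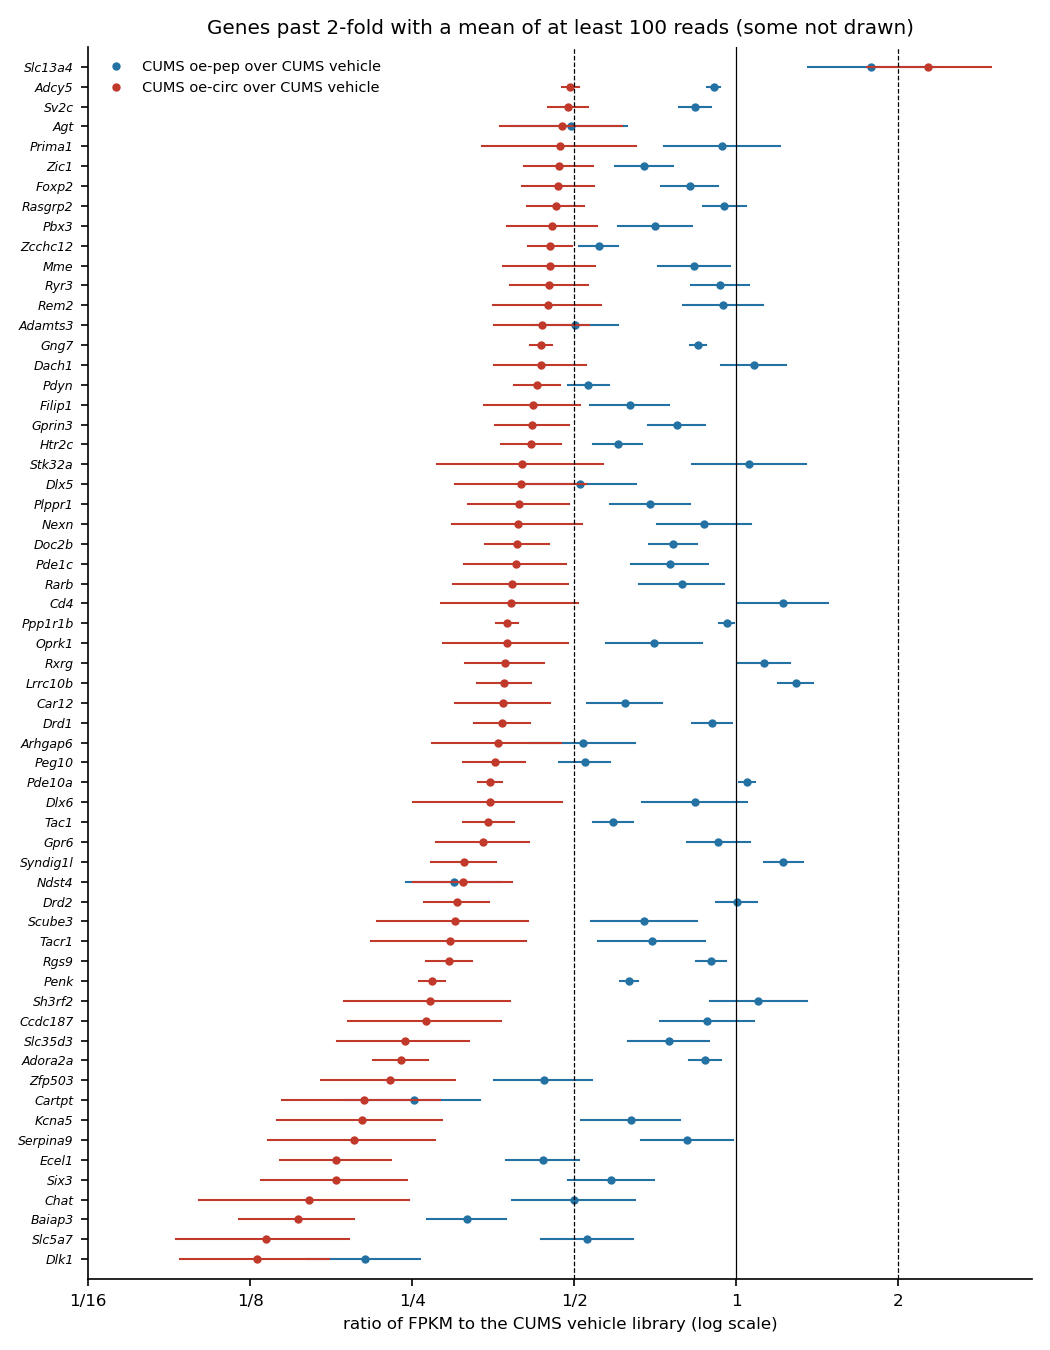
Ratios of FPKM to the vehicle library (log scale) are shown with exact 95% intervals for genes past 2-fold with a mean of at least 100 reads, with Gapdh and genes not reported here left out, sorted by the ratio in oe-circ (red), with oe-pep (blue) beside it. Dlk1 is lowest at 7.76-fold lower, Slc13a4 is the only gene to the right of 2, and Drd2, Pde10a and Rxrg have oe-pep points close to 1 where Dlk1, Ndst4 and Cartpt do not.

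Genes of the meninges and fibroblasts made up the largest listed group among the higher genes. Of 46 listed genes 41 were measured, and 8 of these were more than 2-fold higher, against a background of 0.218%, and 1 lower, Zic1, which also marks septal neurons. The median was 0.48 and 37 of 41 were above 0, with 19 more than 1.5-fold higher. Ogn (chromosome 13, 49608046 to 49624501), a small proteoglycan of the matrix, had 55, 130 and 90 reads, a 3.01-fold higher FPKM (2.18 to 4.20). Slc47a1, an efflux transporter gene, had 19, 50 and 22 reads (3.35-fold higher, 1.94 to 6.01), and Prg4, a lubricating proteoglycan, 35, 79 and 30 (2.87-fold higher, 1.91 to 4.41). For the latter pair the oe-pep library was at the vehicle level, and for Ogn between the others. Slc13a4 (chromosome 6, 35267957 to 35308131) had 90, 161 and 145 reads (2.28-fold higher, 1.75 to 2.98). The meningeal factor gene Foxc2 had 19, 39 and 16 reads, the signal gene Wnt6 21, 40 and 23, and the tendon and fibroblast factor gene Scx 34, 60 and 44. These genes have few reads, and the count of 8 was 2 with a mean of at least 50 reads and 1 with a pseudocount of 1 FPKM. Crabp2 and Foxc2 reached the read limit only through the oe-circ library. The best counted member, Ptgds, a prostaglandin synthase of meninges and oligodendrocytes, had 5833, 7569 and 6298 reads (1.65-fold higher, 1.59 to 1.71). Collagens of fibroblasts had log2 fold changes of 0.44 (Col1a1), 0.33 (Col1a2) and 0.27 (Col3a1), and Col6a1 −0.88. The summed FPKM of the list was 317, 472 and 349.

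Of the 10 genes with the highest positive fold changes at a mean of 100 reads or more, 4 were of the meningeal list. Besides Slc13a4 these were the gap junction gene Gjb2 (81, 128 and 104 reads), the calcification inhibitor gene Mgp (144, 222 and 185) and the matrix gene Fmod (146, 213 and 148). The others were Exph5, Gm11549, Mycn, Boc, Vasn and Efna5, with ratios from 1.83 for Efna5 (1.56 to 2.13) to 1.97 for Exph5 (1.63 to 2.39). The 10 most negative fold changes at this depth were those of Gapdh, Dlk1, Slc5a7, Baiap3, Ecel1, Chat, Six3, Cartpt, Serpina9 and Kcna5, with FPKM ratios from 4.92-fold lower for Cartpt to 34.8-fold lower for Gapdh.

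Markers of the cortical layers were slightly higher in the oe-circ library. Of 38 genes of cortical excitatory neurons, 30 had a log2 fold change above 0, with a median of 0.30 against 0.00 over all genes. More than 1.5-fold higher were 4 of them, and 0 passed 2-fold. Tbr1, a factor of deep layers, had an FPKM of 27.6, 38.6 and 30.5 (1.40-fold higher, 1.33 to 1.47), and Slc30a3, which loads zinc into vesicles, 33.3, 48.1 and 31.7 (1.44-fold, 1.35 to 1.54). Foxp2, a deep-layer factor that striatal neurons also express, was the 1 member more than 2-fold lower, with an FPKM of 2.09, 0.975 and 1.71 (2.14-fold, 1.84 to 2.5). Its layer companions Syt6 and Nxph4 had log2 fold changes of −0.89 and −0.80, and Tle4 −0.25. The summed FPKM of the list was 1228, 1468 and 1295, so cortical and meningeal genes stood higher in the library where striatal, cholinergic and septal genes stood lower. What part of the lower values goes with the makeup of the tissue pieces was not tested.

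Higher genes outside these lists had few reads. In the functional classes they were Tnnc1, a calcium sensor of slow muscle (54, 95 and 36 reads), Inka1 (22, 37 and 36), Fam180a (18, 39 and 8), Anxa1, an anti-inflammatory protein induced by glucocorticoids (17, 34 and 21), and Lct (15, 36 and 18), with Car13 and Ccl21b. Tnnc1 and Fam180a were lower in oe-pep than in vehicle, and Inka1 had nearly equal reads in oe-pep and oe-circ. In neither list nor class were Gm14434, Gm6741, Eif3j2, Gm14296, Gm8186 and Tmem254c, all with near-identical copies, and 4930522L14Rik (11, 24 and 29) and 1500015O10Rik (11, 23 and 36).

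Interneuron genes had a median of 0.00 over 39 genes, with 5 more than 2-fold lower, against 0.947% of all genes. These were Nkx2-1, Tac1, Dlx5 and Dlx6, given above with the ventral forebrain, and Sncg, with 56, 16 and 40 reads. Nkx2-1 reached the read limit only through the vehicle library. At more than 1.5-fold, 8 of the 39 genes were lower and 2 higher. The class markers Pvalb, Sst and Vip did not pass 2-fold. Pvalb had an FPKM of 39.9, 54.9 and 49.1, Sst 370, 321 and 328, and Vip 9.24, 16.3 and 10.1 (1.76-fold higher, 1.58 to 1.96). The GABA synthesis genes, which striatal neurons share, had an FPKM of 59.7, 50.8 and 52.7 (Gad1) and of 54.3, 31.2 and 38.3 (Gad2, 1.74-fold lower, 1.67 to 1.83).

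Glial and vascular lists held few changed genes, beside shares over all genes of 0.947% lower and 0.218% higher. Of 24 astrocyte genes 1 was lower, Agt, and 0 higher, with a median of 0.01. The 28 genes of oligodendrocytes and precursors had 0 past 2-fold and a median of −0.21, with 23 below 0. Mbp, a main protein of myelin, had an FPKM of 314, 269 and 489. Microglial genes had 0 of 24 past 2-fold (median −0.13) and endothelial and mural genes 0 of 28 (0.01), with Cx3cr1 at an FPKM of 13.9, 12.7 and 11.3 and Cldn5 at 53.3, 52.0 and 48.6. Motile cilia genes had 1 of 30 higher, Enkur, with 22, 41 and 37 reads (median 0.11). Choroid plexus genes other than Ttr and 4 more of 19 had too few reads. Hemoglobin genes held 0.0965%, 0.109% and 0.140% of the summed FPKM. Cd4 had 210, 63 and 232 reads (2.62-fold lower, 1.97 to 3.53), while other T cell genes were nearly absent, with 0 to 5 reads for Cd3e, Cd3g and Cd8a.

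Genes of glucocorticoid action and acute stress had a median of 0.27 over 24 members, with 3 more than 2-fold higher, against 0.218% of all genes, and 0 lower. With a mean of at least 50 reads the count was 1, Pmaip1. The 3 were Lrg1, an acute-phase glycoprotein gene, with 32, 64 and 52 reads (2.54-fold higher, 1.64 to 4.02), Pmaip1, a gene that promotes cell death, with 37, 76 and 46 (2.61-fold, 1.74 to 3.98), and Depp1 with 36, 61 and 51 (2.16-fold, 1.40 to 3.35). Better counted members did not pass 2-fold. The glucocorticoid receptor gene Nr3c1 had an FPKM of 15.7, 18.9 and 18.2, Sgk1 12.6, 15.3 and 13.7, and Fkbp5, which lowers the receptor's sensitivity, 3.51, 3.16 and 3.41. Of 29 immediate early genes, which neurons switch on with activity, 0 passed 2-fold, with a median of 0.09. They ranged from Npas4, at an FPKM of 6.00, 3.63 and 3.64, to Dusp6 (log2 fold change 0.63), with Fos at 12.2, 16.5 and 11.3 and Egr1 at 53.4, 76.6 and 72.6. Npas4 was thus lower and Egr1 higher in both overexpression libraries, and Fos was higher in oe-circ alone.

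The FKBP8 gene from which the circular RNA takes its name, and the AMPK, autophagy and dopamine receptor genes that the study followed, were also read out. Mouse Fkbp8 had 6744, 5137 and 5857 reads and an FPKM of 80.5, 78.0 and 77.2, a ratio of oe-circ 1.03-fold lower (0.995 to 1.07). This is the endogenous mouse gene, and reads from the vector insert were not analysed here. None of 13 measured genes of the FKBP family passed 1.5-fold, beside 95.15% of all genes that stayed within it. Drd3 had 34, 2 and 5 reads, under the read limit, and its FPKM was 13.4-fold lower in oe-circ with a counting interval of 3.43 to 115. Like the other dopamine receptors Drd1 and Drd2 it was low in oe-circ, while Drd5 had 41, 35 and 23 reads. Unlike Drd1 and Drd2, Drd3 was also low in oe-pep, 6.15-fold below vehicle (2.39 to 20.2) on 5 reads. In oe-pep, Drd1 had an FPKM of 16.3 against 18 in vehicle, and Drd2 22.6 against 22.5. Dopamine handling genes Th and Ddc had log2 fold changes of −0.71 and −0.72 and Maoa −0.20. Of 47 genes of AMPK, mTOR and autophagy, 0 were more than 2-fold higher or lower, and 46 stayed within 1.5-fold, with a median of 0.05. Over all genes, 0.947% were more than 2-fold lower, 0.218% higher, and 95.15% stayed within 1.5-fold. The counts of this list are near those shares, so nothing particular to the pathway is read from them. The AMPK subunit gene Prkaa1 had an FPKM of 6.92, 6.85 and 6.11, Mtor 11.8, 11.3 and 11.3, Ulk1 15.1, 15.7 and 16.2, and Sqstm1, which links cargo to autophagosomes, 138, 138 and 137. The member outside 1.5-fold was Atg9b, with 130, 51 and 75 reads (2.00-fold lower, 1.44 to 2.83), a relative of Atg9a, which had a log2 fold change of 0.05. These values are of transcripts and say nothing of phosphorylation.

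Imprinted genes, expressed from 1 parental copy, had 4 of 33 lower by more than 2-fold, against 0.947% of all genes, and 0 higher (median −0.18, 25 below 0). Of the 4, Magel2 reached the read limit only through the vehicle library. Peg10 (chromosome 6, 4747306 to 4760517) had 1030, 288 and 488 reads (2.81-fold lower, 2.46 to 3.22), and with Dlk1 and Magel2 it belongs to the septal and hypothalamic list. Zim1 had 75, 22 and 60 reads. Partners of Dlk1 in its cluster, Rtl1 and Dio3, had log2 fold changes of −0.80 and −0.81. Immune genes were mostly flat, beside a share of 0.218% higher over all genes. More than 2-fold higher were 1 of 35 genes of interferon response and antigen presentation, H2-Aa, with 17, 32 and 28 reads, and 1 of 13 complement genes, C1ra, with 41, 76 and 60. Housekeeping families had 0 members past 2-fold, with medians of −0.14 over 91 cytosolic ribosomal protein genes, −0.08 over 89 nuclear genes of the respiratory chain and 0.02 over 41 proteasome genes.

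Several changed genes share their sequence with near-identical copies, so that reads may be placed on either. Such copies, found by alignment of transcripts at 95% identity or more, were present for 391 of the 13309 genes (2.94%), and for 6 of the 126 lower and 8 of the 29 higher genes. Gm14434, a zinc finger gene on chromosome 2, had 9, 89 and 1 reads, a 12.6-fold higher FPKM, but together with its 8 copies 416, 423 and 418. Nanp, an enzyme of sialic acid synthesis on chromosome 2, had 39, 5 and 29 reads, and its copy Gm6741 on chromosome 17 had 5, 44 and 25, so that their sum was 44, 49 and 54. Eif3j2, with 21, 45 and 22 reads, and Eif3j1 summed to 608, 535 and 608. In these sets the sum of the reads changed far less than the single gene. The chemokine gene Ccl21b on chromosome 4 had 4, 30 and 35 reads and its 4 copies 72, 66 and 28. Gapdh (chromosome 6, 125161715 to 125166467), the enzyme of glycolysis often used as a reference gene, had 2302, 52 and 804 reads, and its 14 copies 879, 960 and 912. The total of 3181, 1012 and 1716 still had the lowest value in oe-circ, and the value of Gapdh remains uncertain. Gm8186, with 40, 64 and 38 reads, and Snrpg summed to 288, 179 and 192, and Sarnp, lower with 139, 52 and 92 reads, summed with its copy to 380, 245 and 374. Gm14296 and its copy summed to 41, 58 and 31, and Gm10269 and its copies, with Rpl35 among them, to 1809, 1143 and 1604. For Entpd4b (119, 23 and 107 reads), Tmem254c (23, 55 and 13), C1ra and Slc10a4, the copies held at most 3 reads in a library.

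**Figure D5:**
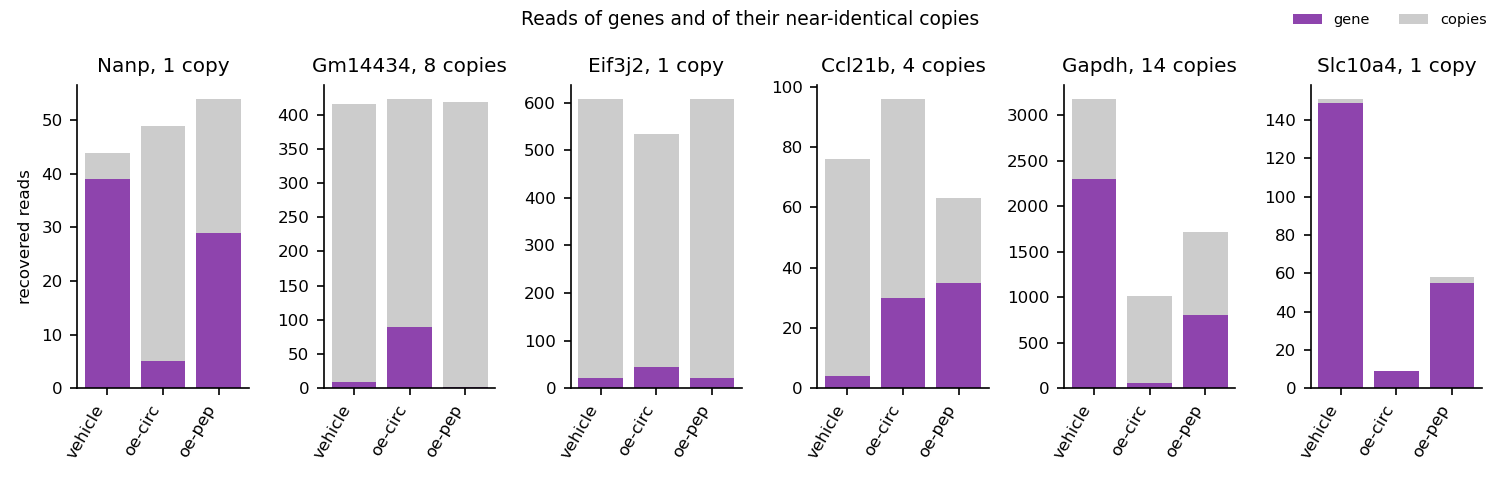
Recovered reads of 6 changed genes (purple) are stacked on those of their near-identical copies (grey) in each library, with an axis of reads per panel that starts at 0. For Nanp, Gm14434 and Eif3j2 the stacks are of similar height across libraries while the purple share differs, and for Gapdh and Slc10a4 the whole stack is lowest in oe-circ.

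Exons of 22 changed genes overlap a gene on the other strand and those of 7 a gene on the same strand, among them Penk with A830012C17Rik, Ppp1r1b with 1700003D09Rik, Six3 with Six3os1 and Baiap3 with Tsr3. The kit marks strand, but the strand setting of the counting is not given in the sources used here, so for these genes the reads of partners may not be told apart.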

How the data were processed

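PrL RNA of 3 libraries, 1 per group, was grouped by the vector named in the sample labels. The authors deposited FPKM and gene lengths of 54532 genes in a table. Without their roles or order, featureCounts 1.6.3, HISAT2 2.1.0, cutadapt 2.5 and the build mm10 are named in the submitters' processing notes. Times gene length, each FPKM of a library came to whole steps of 1 size, with a deviation of at most 7.74e-09 reads, and the steps were used as recovered reads. The study's methods name RMA and limma with a 2-fold limit and P, for which 1 library per group leaves no test, and no count model was run. Fold changes used log2(FPKM + 0.1). Intervals were exact, Poisson for FPKM and conditional binomial for ratios, at 95%, and cover counting error only. The steps were tested on simulated data.

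The genes described, the 28 lists and 37 symbol families were chosen with earlier results of these data known. Genes were named by a rule: Fkbp8 and Drd3, the 10 most positive and most negative fold changes with a mean of at least 100 reads, up to 6 changed and the 3 most abundant members of each list, and up to 4 changed members of each family. Other genes were chosen after their values were seen. Ccn1, Ccn2, Ccn3 and Gpr52 were not found under these symbols. Copies were searched with minimap2 2.31 in GENCODE transcripts, and promoters came from RefSeq. Scripts ran in Python 3.11.15 with scipy 1.17.1, numpy 2.4.6, matplotlib 3.10.9 and pandas 2.3.3. Alternatives changed the pseudocount, scaling, read limit, gene class, copies and threshold. Some genes are not reported here.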

Additional observations from a re-analysis of the deposited data

How the results depend on the processing

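Direction was not tested by the alternatives, since a pseudocount cannot turn it and read or gene limits only choose which genes are counted. Median-ratio scaling, with factors of 0.9998, 1.002 and 0.9978, gave the same 29 higher and 126 lower. The count of higher genes rested on few reads: it was 44 with a pseudocount of 0.01 FPKM, 4 with 1 FPKM, 209 with no read filter, 5 and 1 with a mean of at least 50 and 100 reads, 48 over all biotypes, and, in alternatives chosen after seeing the data, 47 with no pseudocount and 201 at 1.5-fold. It was 21 without genes that have near-identical copies. The count of lower genes was 48 with a pseudocount of 1 FPKM, 414 with no read filter, 62 with at least 100 reads and 444 at 1.5-fold, and ranged from 88 to 174 in the others. Lower genes of the septal list numbered 8 with at least 50 reads, higher meningeal genes 1 with a pseudocount of 1 FPKM and 2 with at least 50 reads, and with a pseudocount of 1 FPKM the lower cortical excitatory and lower meningeal counts were 0. Of 161 genes named by the rule, 37 moved beyond their counting interval with a pseudocount of 1 FPKM. No paired analysis was possible because each group has 1 library. With 14413544 reads or more in genes per library, changes below about 50 mean reads were limited by counting, and the spread between mice was not measured.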
